A study of Mus musculus with 8 samples.

Results

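The 49 genes described here encode the focal adhesion and actomyosin machinery, the proteins that tie integrins to actin filaments and pull on them. They comprise 10 linkers and crosslinkers between integrins and actin, 3 genes of the ILK, PINCH and parvin complex, 4 adhesion kinases and scaffolds, 8 genes of LIM-domain proteins and of VASP, which elongates filaments at adhesions, 7 small GTPases and effectors, 6 genes of myosin II and its light chain kinase, 8 actins and filament proteins, and 3 genes of the SRF and MRTF transcription factors. The genes were taken from the table by their symbols, and no threshold on a measured value entered that rule. All 49 were found among the 13687 genes of the deposited table, and all 49 passed the filter on low values that left 13665 genes for testing.

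A focal adhesion forms where clustered integrins bind talin and kindlin, and vinculin, alpha-actinin and filamin then hold actin filaments to that site. Non-muscle myosin II pulls on the filaments once its regulatory light chains are phosphorylated, among others by myosin light chain kinase, and the loaded adhesion signals through focal adhesion kinase and Src. Actin assembly also uses up the monomeric actin that retains the MRTF coactivators in the cytoplasm, and MRTF together with serum response factor (SRF) drives the transcription of many genes of this machinery. In mesothelial cells (MCs), the flat cells that line the peritoneum, stress fibres and focal adhesions are known to grow as the cells take on mesenchymal features.

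RNAseq libraries were made from primary MCs of 4 mice, obtained by trypsin digestion of the parietal peritoneum. The WT mice (animals 3 and 4) were littermates of the CAV1-deficient mice (strain B6.Cg-CAV1tm1mls/J, labelled Cav-1-, here CAV1-/-, animals 1 and 2), which lack caveolin-1, the coat protein of caveolae, in all of their cells. Cells of every animal were kept static up to confluence, and 1 culture was then stretched while another stayed static for 24 h, so that the 8 libraries form 4 groups of 2 cultures from 2 animals. Reads of 61 bases were sequenced from polyA RNA on 1 end only, and the stretch regimen of the mouse cells and the age of the mice are not given in the sources used here. In all lists below the values of animal 3 (WT) or animal 1 (CAV1-/-) come first. Values are TMM-normalized CPM, the reads of a gene per 1000000 reads after scaling the libraries by the TMM method, and every log2 difference is taken after adding 1.

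The libraries held between 9777738 and 21203938 reads, and all 4 stretched libraries were deeper than the static ones. The lowest read number of any of the 49 genes was 80 (Mylk), so counting error was small beside the differences between animals. Cav1, the targeted gene, stood at 764 and 275 TMM-normalized CPM in static and 569.9 and 247 in stretched WT MCs, and 34.5 and 18.9 in static and 20.0 and 12.8 in stretched CAV1-/- MCs. Of 13 listed mesothelial markers 12 were measured, all above 0 in every library, and their summed level was 3903 and 3744 in static and 2963 and 3573 in stretched WT MCs, and 1116 and 1019.9 in static and 1045 and 854 in stretched CAV1-/- MCs, with mesothelin (Msln) between 20.4 and 581. Wt1 and Krt19 overlapped between genotypes in both conditions. In stretched MCs Wt1 stood at 133 and 94.9 (WT) and 74.9 and 118 (CAV1-/-). Krt19 stood there at 37.3 and 21.7 (WT) and 69.4 and 4.38 (CAV1-/-). Every other measured marker of this list was lower in every CAV1-/- than in every WT culture. All 14 leukocyte markers were detected, and their sum was 438 and 74.1 in static and 466 and 81.2 in stretched WT MCs, and 4631 and 305 in static and 4725 and 336 in stretched CAV1-/- MCs, so that both cultures of animal 1 stood far above the other 6 libraries. Because each group holds 2 animals, exact tests of 2 against 2 values cannot go below a p of 0.333, and the p-values below come from limma fitted over all genes, with 4 residual degrees of freedom. Unless another fit is named, the animal is left out of it. Gaps between animals then count as spread in the SE and p of stretch differences and interactions.

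The 49 genes took between 3.40% and 4.25% of all reads. Exon lengths here join the exons of all annotated transcripts of a gene, so they can exceed the length of its main transcript. Per kb of exon, β-actin (Actb) averaged 1885 TMM-normalized CPM over the 8 libraries and γ-actin (Actg1) 1616. Thymosin β4 (Tmsb4x), which sequesters actin monomers, followed at 869, and tropomyosin 4 (Tpm4), which coats filaments, at 585. Filamin A (Flna), the crosslinker of actin networks, averaged 387 per kb, which was near cofilin (Cfl1, 379) and profilin (Pfn1, 352). At the low end were Mkl2 (4.82), Rock1 (4.96), Limk1 (5.14), talin 2 (Tln2, 5.27) and Mylk (8.03). The machinery was thus led by filament subunits and monomer-binding proteins, with kinases, coactivators and the second talin far below. Mylk spread most between libraries, from 3.88 to 298 TMM-normalized CPM, a ratio of 76.7.

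What 24 h of stretching did in WT MCs was asked first. By limma, 0 of the 49 genes passed an adjusted p of 0.05, beside 0 of all genes tested (0%), and 0 of the 49 passed with DESeq2 (0.022% of all genes), with edgeR, with the animal as a block or with the animal as a random effect. At an unadjusted p of at most 0.05 only Flnc was lower and none was higher, against 1.45% and 0.82% of all genes. By sign, 35 of 49 genes stood lower in the stretched WT cultures, where 53.2% of all genes did (46.8% stood higher), with a median log2 difference of -0.059 for the 49 genes and -0.017 for all genes tested. In 12 genes both stretched WT cultures lay below both static ones, and in 3 they lay above, against 17.2% and 13.9% of all genes. With the animal as a block, 10 genes were lower and 2 higher at an unadjusted p of at most 0.05, where 8.42% and 6.06% of all genes were, and the smallest adjusted p among the 49 was that of Vcl (0.162).

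In CAV1-/- MCs the same comparison gave 24 genes higher and 25 lower by sign, where 50% of all genes lay on either side, with a median log2 difference of -0.0026. None of the 49 genes reached an unadjusted p of 0.05 by limma, against 1.08% higher and 1.02% lower over all genes. In 1 gene, Actg1, both stretched cultures lay below both static ones, against 11.9% of all genes, and in 0 genes they lay above, against 12.4%. Again 0 of 49 genes passed an adjusted p of 0.05 by limma (0% of all genes), DESeq2 (0.0512% of all genes), edgeR or either fit with the animal. The block called 0.00732% of all genes. The block gave 2 genes higher and 2 lower at an unadjusted p of at most 0.05 (all genes, 6.58% and 6.77%). In 45 of the 49 genes the gap between both CAV1-/- animals was larger than the mean stretch difference (91.8%, against 69.0% of all genes tested), and in WT MCs in 29 of 49 (59.2%, against 61.1%).

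Since each animal gave a static and a stretched culture, the 4 within-animal differences could be set side by side. Stretched cultures were lower in every animal for 14 genes and higher in every animal for 5, against 16.9% and 14.5% of all genes. The 14 were Tln1, Actn1, Actn4, Flnc, Parva, Zyx, Pdlim5, Mylk, Myh10, Myl12a, Myl12b, Actb, Actg1 and Pfn1, and the 5 were Fermt2, Ptk2, Src, Rhoa and Rhoc. Under median-of-ratios rescaling 12 and 4 genes met this, and under quantile normalization 8 and 4. The shares of all genes given above belong to the main scaling only, so these counts have no share over all genes beside them. Tln1, Parva, Pdlim5, Mylk, Myh10, Myl12a and Myl12b stood lower, and Ptk2, Rhoa and Rhoc higher, in every animal under all 3 scalings. Averaged over genotypes, 0 of 49 genes passed an adjusted p of 0.05 (0% of all genes by limma), and with the animal as a block 0 of 49 passed beside 1.47% of all genes, Myh10 coming closest (adjusted p = 0.0759). By sign 28 of the 49 stood lower and 21 higher (all genes, 52.3% and 47.7%), and at an unadjusted p of at most 0.05 only Flnc was lower (all genes, 2.55% lower and 2.19% higher). The block gave 9 genes lower and 3 higher at that unadjusted p, against 11.5% and 9.47% of all genes.

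**Figure D1:**
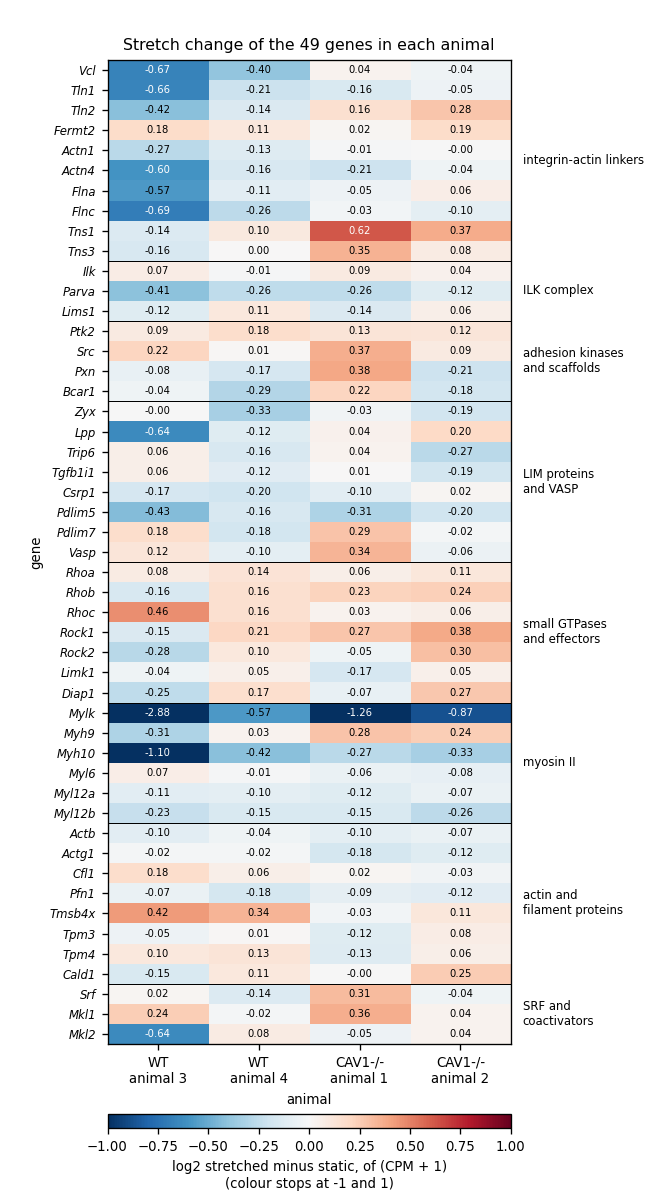
Log2 difference between the stretched and the static culture of each animal for the 49 genes, ordered by role, with 1 column per animal and blue for lower and red for higher in the stretched culture. The linkers are deepest blue in animal 3 (WT), with a median of -0.49, and paler in both CAV1-/- animals, where Tns1 is red, while Mylk and Myh10 are blue in all 4 columns.

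Without stretch, CAV1-/- and WT MCs were compared next. No gene of the 49 passed an adjusted p of 0.05 by limma, edgeR, DESeq2 or with the animal as a random effect, while 0.0732%, 0.0146%, 2.26% and 0.0146% of all genes did. Tgfb1i1 was higher at an unadjusted p of at most 0.05 and none was lower, where 2.76% and 5.42% of all genes were. By sign 34 of 49 genes were higher and 15 lower (all genes, 47.8% and 52.2%), with a median log2 difference of 0.10 against -0.013 for all genes. Without animal 1 the same median was -0.027, with 21 genes higher and 28 lower. Both CAV1-/- cultures lay above both WT cultures in 15 genes (all genes, 16.1%) and below them in 6 (all genes, 20.8%).

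In stretched MCs 42 of the 49 genes were higher in CAV1-/- cultures, where 50% of all genes were, with a median log2 difference of 0.20 against 0 over all genes. The median was 0.050 without animal 1, with 30 genes higher and 19 lower, and between 0.17 and 0.31 without any other animal. Under quantile normalization it was 0.13, with 34 genes higher. In 15 genes both stretched CAV1-/- cultures lay above both WT cultures (all genes, 14.6%) and in 2 below (all genes, 15.9%). By limma 0 genes passed an adjusted p of 0.05 (all genes, 0.0585%), and Tln2, Lpp and Tgfb1i1 were higher at an unadjusted p of at most 0.05 (all genes, 2.44%) with none lower (all genes, 3.82%). DESeq2 called Tln2 alone (all genes, 1.73%), and edgeR and the fit with the animal as a random effect called 0 of the 49 (all genes, 0.0439% in either).

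Averaged over both conditions, 38 of 49 genes were higher in CAV1-/- MCs (all genes, 49.3%). By limma 0 of the 49 genes passed an adjusted p of 0.05, while 1.2% of all genes did. This fit, like those of DESeq2 and edgeR, takes both cultures of an animal as independent. With the animal as a random effect 0.0732% of all genes and 0 of the 49 passed. DESeq2 called Tln2 and Tgfb1i1 (all genes, 6.51%), and edgeR called 0 of the 49 (all genes, 0.966%). At an unadjusted p of at most 0.05, Tln2, Tgfb1i1, Lpp, Ptk2 and Tmsb4x were higher (all genes, 5.09%) and Myh10 was lower (all genes, 7.95%). All 4 CAV1-/- cultures lay above all 4 WT cultures in 7 genes, namely Tln2, Flna, Ptk2, Tgfb1i1, Actb, Actg1 and Tpm3, against 3.86% of all genes, and below them in 0, against 5.88%. The median log2 difference was 0.17, and 0.019 without animal 1, whose leukocyte marker sum is given above. The part of that sum, and of the mesothelial markers, in these differences was not tested. In such bulk samples, fewer cells of a type and less RNA per cell cannot be told apart.

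**Figure D2:**
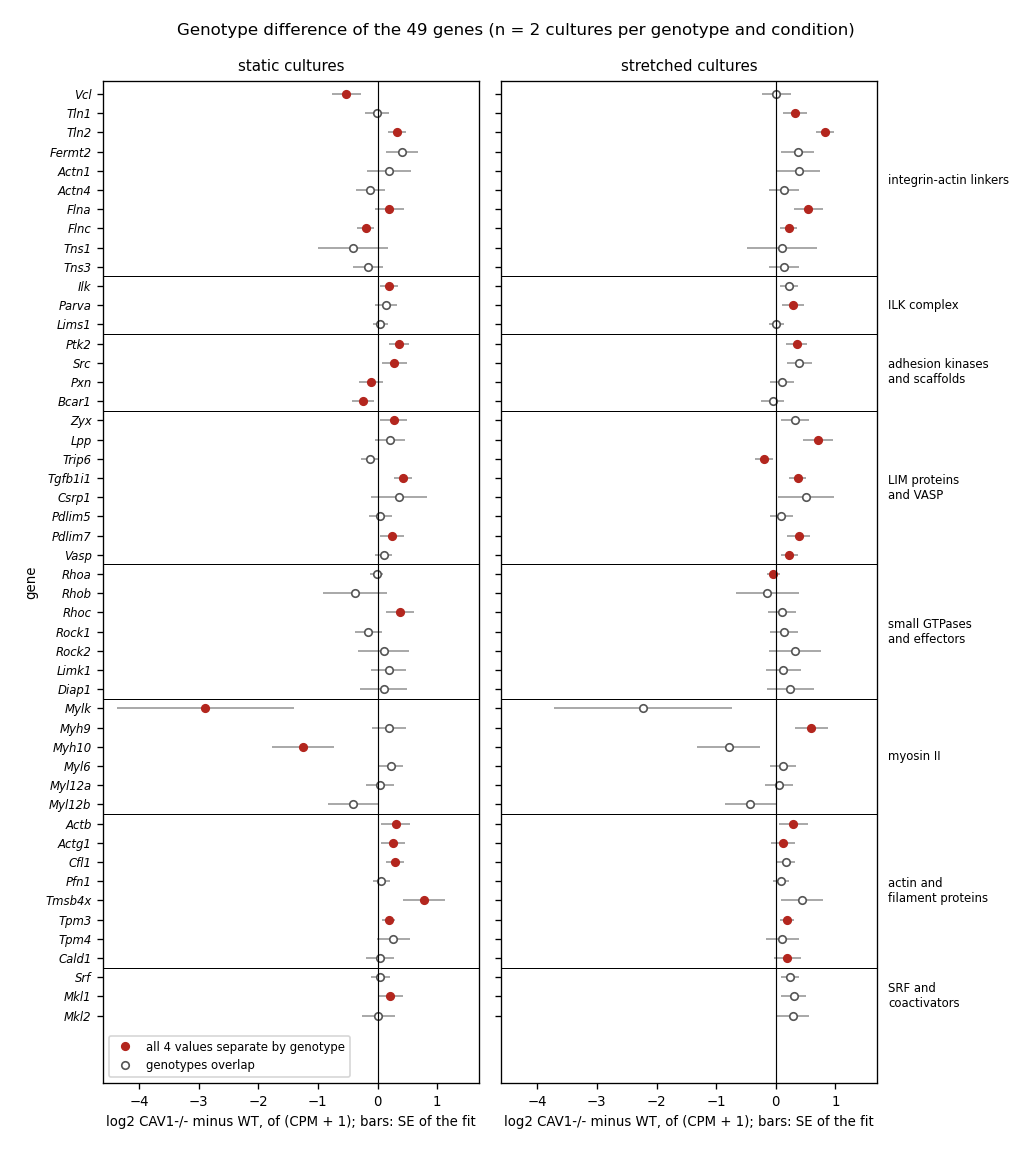
Log2 difference between CAV1-/- and WT cultures for each of the 49 genes in static (left) and stretched (right) MCs, with bars of 1 SE from limma and red points where both CAV1-/- cultures lay outside both WT cultures. Most points lie right of 0 in the stretched panel (42 of 49), and Mylk and Myh10 lie furthest left in both panels.

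The interaction of genotype and stretch asked whether stretched and static cultures differed otherwise with CAV1 than without it. No gene of the 49, and 0% of all genes, passed an adjusted p of 0.05 by limma, edgeR, DESeq2 or the block, and none of the 49 reached an unadjusted p of 0.05 (all genes, 0.351% higher and 0.132% lower in CAV1-/-). By sign 33 of the 49 interactions were positive, meaning a higher stretch difference in CAV1-/- MCs (all genes, 52.6%). Their median was 0.14, but -0.043 without the static culture of animal 2 and -0.055 without the stretched culture of animal 1. Leaving out a single culture keeps its partner from the same animal unpaired, so the gap between animals enters those values. The within-animal differences did not overlap between genotypes in 20 genes, of which 14 were higher in both CAV1-/- animals (all genes, 18.1%) and 6 lower (all genes, 16.3%). With the animal as a block 5 genes were higher and 1 lower at an unadjusted p of at most 0.05 (all genes, 2.74% and 1.51%), all with an adjusted p of 0.947 or above.

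Of the 14 genes with a higher stretch difference in both CAV1-/- animals, 8 were among the 10 linkers and crosslinkers. Of the 10, 9 stood lower in stretched than in static WT cultures (median log2 difference -0.31), 6 of them without overlap between groups (all genes, 17.2%), and 5 of 10 stood lower in CAV1-/- MCs (median 0.0026). The interaction was positive in 9 of 10 linkers (median 0.34) and did not overlap in 8 (all genes, 18.1%), namely Vcl, Tln1, Tln2, Actn1, Flna, Flnc, Tns1 and Tns3. Under quantile normalization 8 of 10 stood lower in WT MCs. Animal 3 carried the larger share of this, with a median over its linkers of -0.49, against -0.14 in animal 4, and without animal 3 the WT median was -0.14, with 7 of 10 lower.

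The linkers are genes with long exon sequence, with a median exon length of 9.40 kb against 4.38 kb over the genes tested. In animal 3 genes of 8 kb or more had a median stretch difference of -0.14 over 2406 genes, whereas genes under 2 kb had a median of 0.039 over 1973. In the other animals the long genes had medians of 0.0019 (animal 4), 0.051 (animal 1) and 0.088 (animal 2). Of all genes of 8 kb or more, 32.8% had a higher stretch difference in both CAV1-/- animals than in both WT animals, against 10.3% of genes under 2 kb, and 11 of the 19 long genes of the machinery did. The median interaction in that length class was 0.14 for all genes, 0.33 for the 19 members and 0.24 for the 12 of them that are not linkers. The part of exon length in the differences of the linkers was not tested.

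**Figure D3:**
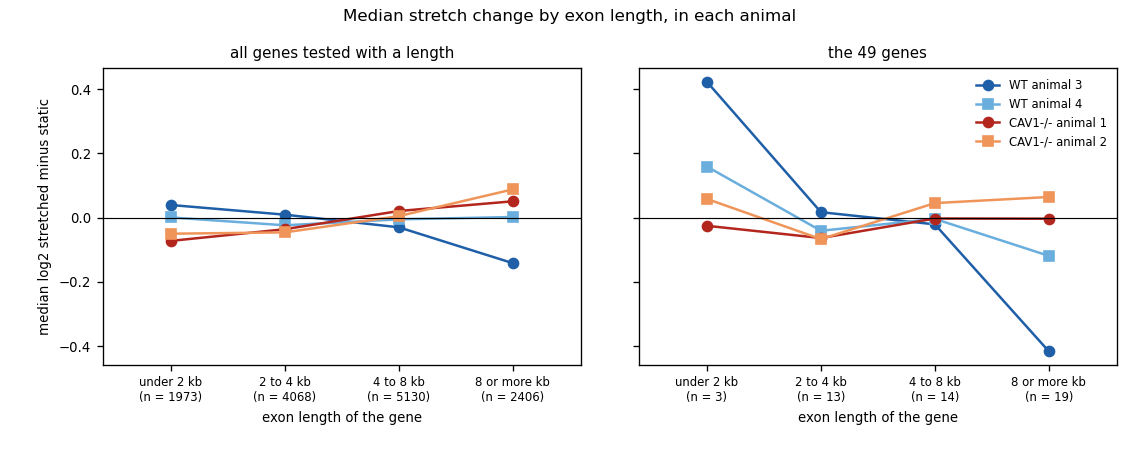
Median log2 stretch difference in each animal by exon length class (under 2, 2 to 4, 4 to 8 and 8 or more kb), for all genes tested and for the 49 genes. The members' class under 2 kb holds 3 genes. In animal 3 (WT) both lines slope down with length, to -0.14 for all genes and -0.42 for the 19 members of 8 kb or more, while in the CAV1-/- animals the line of all genes rises to 0.051 and 0.088.

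Vinculin (Vcl, chr14:20929398-21033676, GRCm38) is the protein that reinforces the bond between talin and actin under load. It stood at 1012 and 1283 TMM-normalized CPM in static and 635 and 974 in stretched WT MCs, and 815 and 772 in static and 837 and 749.7 in stretched CAV1-/- MCs. Both static WT cultures were above every other culture. The log2 stretch difference in WT MCs was -0.53 ± 0.24 (SE; unadjusted p = 0.0668, adjusted p = 1, limma), and -0.0026 ± 0.24 in CAV1-/- MCs. By animal the stretch differences were -0.67 and -0.40 (WT) and 0.037 and -0.042 (CAV1-/-), and the interaction of 0.53 ± 0.34 was the largest of the 49 genes whose animals did not overlap. With the animal as a block in limma, the unadjusted p was 0.00157 for stretch in WT MCs (adjusted p = 0.162). For the interaction it was 0.00900 (adjusted p = 0.947). Static CAV1-/- cultures lay below static WT cultures, at a log2 difference of -0.52 ± 0.24 (unadjusted p = 0.0717). Of the 61-base stretches of Vcl exons, 25% also lie in the overlapping gene Ap3m1, which stood between 71.9 and 113 TMM-normalized CPM.

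Talin 1 (Tln1) links integrin tails to actin and opens the binding sites of vinculin when pulled. Its values were 1029.7 and 1022 TMM-normalized CPM in static and 649.8 and 881 in stretched WT MCs, and 1116 and 931 in static and 1002 and 897 in stretched CAV1-/- MCs. Stretched cultures were lower in all 4 animals, at log2 differences of -0.66 and -0.21 (WT) and -0.16 and -0.054 (CAV1-/-), and the WT groups did not overlap (log2 difference -0.44 ± 0.20, unadjusted p = 0.0657, adjusted p = 1, limma). Talin 2 (Tln2, chr9:67217087-67559703), the less abundant talin, stood at 87.8 and 82.4 TMM-normalized CPM in static and 65.5 and 74.4 in stretched WT MCs, and 99.7 and 114 in static and 112 and 139 in stretched CAV1-/- MCs. All CAV1-/- cultures lay above all WT cultures, and the stretched culture was the higher one in both CAV1-/- animals and the lower one in both WT animals. The log2 difference between genotypes was 0.82 ± 0.15 in stretched MCs (unadjusted p = 0.00148, adjusted p = 0.220 by limma and 0.00139 by DESeq2) and 0.58 ± 0.11 averaged over conditions (adjusted p = 0.0777 by limma, 0.0879 by edgeR and 0.000425 by DESeq2). Tln2 had the smallest p of the 49 genes in both comparisons. For the average, limma, edgeR and DESeq2 took both cultures of an animal as independent, and Tln2 did not pass with the animal as a random effect.

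Filamin A (Flna) stood at 3631 and 3469.7 TMM-normalized CPM in static and 2439.9 and 3219.6 in stretched WT MCs, and 4510.4 and 3651 in static and 4360.2 and 3817 in stretched CAV1-/- MCs. The WT groups did not overlap on stretching (log2 difference -0.34 ± 0.24, unadjusted p = 0.208), nor did genotypes in either condition, with 0.54 ± 0.24 in stretched MCs (unadjusted p = 0.0659) and 0.37 ± 0.17 averaged (unadjusted p = 0.0748, adjusted p = 0.444, limma). Filamin C (Flnc), the filamin best known from striated muscle, stood at 816 and 698 TMM-normalized CPM in static and 505 and 582 in stretched WT MCs, and 631 and 682 in static and 619.8 and 637 in stretched CAV1-/- MCs. It was the only one of the 49 genes with an unadjusted p of at most 0.05 for stretch in WT MCs, at a log2 difference of -0.48 ± 0.15 (unadjusted p = 0.0164, adjusted p = 1, limma), and averaged over genotypes (-0.27 ± 0.10, unadjusted p = 0.0390, adjusted p = 0.984, limma). The static CAV1-/- cultures lay below the static WT cultures and the stretched CAV1-/- cultures above the stretched WT cultures, so that the order of genotypes turned between conditions, with an interaction of 0.42 ± 0.21 (unadjusted p = 0.0892).

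The alpha-actinins crosslink filaments in stress fibres and at adhesions. Actn1 stood at 1532 and 1053 TMM-normalized CPM in static and 1271 and 963 in stretched WT MCs, and 1847 and 1139 in static and 1829 and 1139 in stretched CAV1-/- MCs. Actn4 stood at 1130.5 and 1041 TMM-normalized CPM in static and 745 and 933 in stretched WT MCs, and 1208 and 827 in static and 1045 and 802 in stretched CAV1-/- MCs. Both were lower on stretching in all 4 animals, in Actn1 at a log2 difference as small as -0.00039 in animal 2, and Actn1 lost this under median-of-ratios rescaling and Actn4 under quantile normalization. Kindlin 2 (Fermt2), which activates integrins together with talin, was the only linker that stood higher on stretching in every animal, at log2 differences of 0.18 and 0.11 (WT) and 0.021 and 0.19 (CAV1-/-), and it lost this under median-of-ratios rescaling. Its level was 295 and 234 TMM-normalized CPM in static and 334 and 252 in stretched WT MCs, and 429.5 and 285 in static and 436 and 324 in stretched CAV1-/- MCs.

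Tensins tie integrins to actin in the more mature adhesions. Tensin 1 (Tns1) stood at 773 and 496 TMM-normalized CPM in static and 702 and 532 in stretched WT MCs, and 700.1 and 309 in static and 1076 and 399 in stretched CAV1-/- MCs, and tensin 3 (Tns3) at 317 and 307 TMM-normalized CPM in static and 284 and 307 in stretched WT MCs, and 323 and 243 in static and 410.3 and 256 in stretched CAV1-/- MCs. In both genes and both conditions the CAV1-/- animals lay further apart than the WT animals did. The interaction of Tns1 was 0.51 ± 0.82 (unadjusted p = 0.555, limma), with no overlap between genotypes. With the animal as a block its unadjusted p was 0.0122 (adjusted p = 0.947). The interaction turned to -0.076 without the static culture of animal 2 and to -0.20 without the stretched culture of animal 1. Either fit leaves the partner culture of that animal unpaired.

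**Figure D4:**
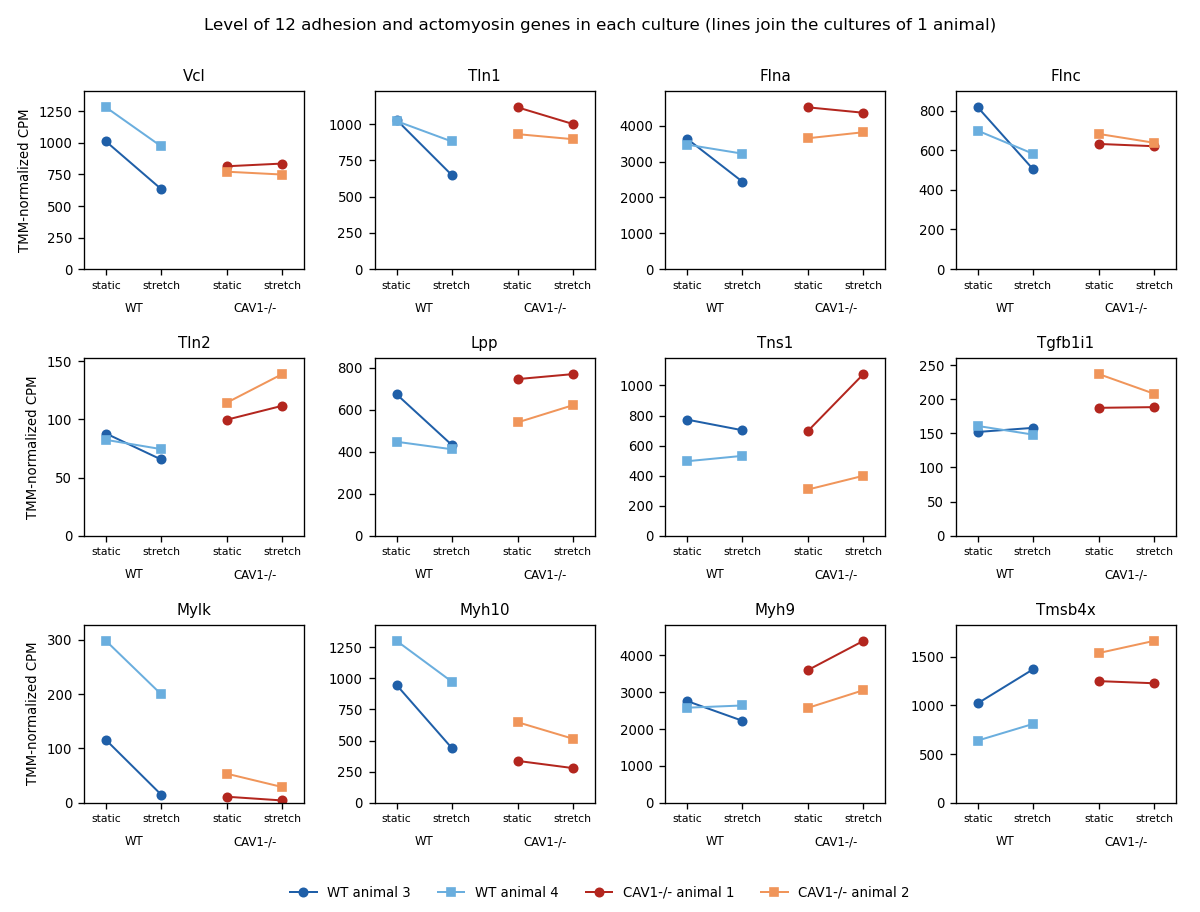
TMM-normalized CPM of 12 genes in each of the 8 cultures, static and stretched cultures of 1 animal joined by a line. Vcl, Tln1, Flna and Flnc slope down in both WT animals, and Vcl, Flna and Flnc lie nearly level in CAV1-/- animals while Tln1 slopes down there too, Mylk and Myh10 slope down in all 4, and the CAV1-/- lines of Tln2 and Tgfb1i1 lie above those of WT.

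The ILK, PINCH and parvin complex couples integrin β tails to actin. Parvin (Parva) stood lower on stretching in every animal, at log2 differences of -0.41 and -0.26 (WT) and -0.26 and -0.12 (CAV1-/-), with values of 415 and 354 TMM-normalized CPM in static and 313 and 296 in stretched WT MCs, and 485 and 369.9 in static and 405 and 341 in stretched CAV1-/- MCs and a log2 difference in WT MCs of -0.33 ± 0.18 (unadjusted p = 0.114). Its WT groups did not overlap. PINCH1 (Lims1) ranged from 182 to 219 TMM-normalized CPM, the narrowest span of the complex. Ilk stood at 255 and 233 TMM-normalized CPM in static and 268 and 231 in stretched WT MCs, and 299 and 259 in static and 318 and 267 in stretched CAV1-/- MCs, but 64.5% of its 61-base stretches are shared with other annotated genes, 55.8% with Taf10 alone, so its level is uncertain.

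Focal adhesion kinase (Ptk2) and Src start the signalling of adhesions, and paxillin (Pxn) and p130Cas (Bcar1) are their scaffolds. Ptk2 stood at 92.8 and 71.4 TMM-normalized CPM in static and 98.7 and 80.8 in stretched WT MCs, and 99.7 and 109 in static and 109 and 119 in stretched CAV1-/- MCs. All CAV1-/- cultures lay above all WT cultures, with a log2 difference of 0.35 ± 0.12 averaged over conditions (unadjusted p = 0.0265, adjusted p = 0.300, limma), and stretched cultures were higher in every animal, at log2 differences of 0.088 and 0.18 (WT) and 0.13 and 0.12 (CAV1-/-). Src, at 138 and 119 TMM-normalized CPM in static and 161 and 119.8 in stretched WT MCs, and 164 and 148 in static and 211 and 158 in stretched CAV1-/- MCs, was higher on stretching in every animal too, by as little as 0.013 in animal 4, and lost this under quantile normalization. Its average stretch difference was 0.17 ± 0.15 (unadjusted p = 0.282), and that of Ptk2 was 0.13 ± 0.12 (unadjusted p = 0.332). Both scaffolds were lower in static CAV1-/- cultures than in static WT cultures without overlap, at log2 differences of -0.11 ± 0.20 (Pxn) and -0.24 ± 0.19 (Bcar1) (unadjusted p = 0.617 and 0.240).

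Of the 8 LIM-domain proteins and VASP, 7 stood higher in CAV1-/- than in WT MCs in each condition, with medians of 0.23 (static) and 0.35 (stretched), and without animal 1 of 0.061 and 0.16. Hic-5 (Tgfb1i1), a relative of paxillin that shuttles to the nucleus, stood at 152 and 161 TMM-normalized CPM in static and 158 and 148 in stretched WT MCs, and 187 and 237 in static and 188 and 208 in stretched CAV1-/- MCs. All CAV1-/- cultures lay above all WT cultures, and stretched and static cultures overlapped in both genotypes. The log2 difference was 0.43 ± 0.14 in static MCs (unadjusted p = 0.0241), 0.37 ± 0.14 in stretched MCs (unadjusted p = 0.0414) and 0.40 ± 0.10 averaged (adjusted p = 0.169 by limma and 0.0131 by DESeq2). For the average, limma and DESeq2 took both cultures of an animal as independent, and Tgfb1i1 did not pass with the animal as a random effect. Without animal 1 the averaged difference was 0.52.

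LPP (Lpp), a relative of zyxin at adhesions and cell contacts, stood at 673 and 447 TMM-normalized CPM in static and 433 and 412 in stretched WT MCs, and 746 and 539.7 in static and 769 and 621 in stretched CAV1-/- MCs. Its stretched cultures were lower than static ones in both WT animals and higher in both CAV1-/- animals, and the stretched genotypes did not overlap. The log2 genotype difference was 0.71 ± 0.26 in stretched MCs (unadjusted p = 0.0320, adjusted p = 0.704, limma) and 0.46 ± 0.18 averaged (unadjusted p = 0.0440), and the interaction 0.50 ± 0.36 (unadjusted p = 0.216). Zyxin (Zyx) itself, which is recruited to strained stress fibres, stood at 726 and 647 TMM-normalized CPM in static and 726 and 514 in stretched WT MCs, and 900.4 and 759 in static and 881 and 664 in stretched CAV1-/- MCs. Static CAV1-/- cultures lay above static WT cultures (log2 difference 0.27 ± 0.23, unadjusted p = 0.289), and stretched cultures were lower in every animal, at log2 differences of -0.00078 and -0.33 (WT) and -0.032 and -0.19 (CAV1-/-).

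Pdlim5, which anchors kinases on stress fibres, was lower in every animal on stretching, at log2 differences of -0.43 and -0.16 (WT) and -0.31 and -0.20 (CAV1-/-), with an average of -0.27 ± 0.13 (unadjusted p = 0.0870). Its levels were 541 and 452 TMM-normalized CPM in static and 401 and 404 in stretched WT MCs, and 587 and 444 in static and 474 and 387 in stretched CAV1-/- MCs. Trip6, another zyxin relative, was the only gene of this group that stood lower in CAV1-/- MCs in both conditions, at 60.5 and 75.4 TMM-normalized CPM in static and 63.0 and 67.5 in stretched WT MCs, and 57.2 and 66.3 in static and 58.8 and 54.7 in stretched CAV1-/- MCs, with a log2 difference of -0.20 ± 0.15 in stretched MCs (unadjusted p = 0.230). Of the remaining 3, Csrp1 ranged from 353 to 921, Pdlim7 from 180.2 to 306 and Vasp from 149 to 193 TMM-normalized CPM. In Csrp1 both cultures of the first animal of a genotype stood above both of the second, so that the animals of a genotype lay further apart than their static and stretched cultures.

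Small GTPases act on contraction and on the formin encoded by Diap1, which elongates filaments. RhoA (Rhoa) stood at 533 and 509 TMM-normalized CPM in static and 564 and 560.3 in stretched WT MCs, and 536 and 494 in static and 559 and 535 in stretched CAV1-/- MCs, with stretched cultures higher in every animal at log2 differences of 0.083 and 0.14 (WT) and 0.061 and 0.11 (CAV1-/-) and a log2 difference of 0.11 ± 0.12 in WT MCs (unadjusted p = 0.374). RhoC (Rhoc) stood at 254 and 234 TMM-normalized CPM in static and 350.1 and 261 in stretched WT MCs, and 368 and 271 in static and 377 and 282 in stretched CAV1-/- MCs. The WT groups of Rhoc did not overlap, with a stretch difference of 0.31 ± 0.24 (unadjusted p = 0.233), and the static CAV1-/- cultures already lay above the static WT cultures, at a log2 difference of 0.37 ± 0.24 (unadjusted p = 0.162). Its interaction was -0.26 ± 0.33 (unadjusted p = 0.456), and its stretch difference averaged over genotypes 0.18 ± 0.17 (unadjusted p = 0.323). In stretched MCs Rhoa was lower in CAV1-/- than in WT cultures without overlap, at a log2 difference of -0.040 ± 0.12 (unadjusted p = 0.739).

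RhoB (Rhob), a short-lived GTPase of endosomes, stood at 132 and 266 TMM-normalized CPM in static and 118 and 298 in stretched WT MCs, and 120.1 and 174 in static and 141 and 205 in stretched CAV1-/- MCs. Animal 4 held the highest levels and animals 3 and 1 the lowest ones, in both conditions. Of the kinases Rock1 and Rock2, which promote contraction, Rock1 ranged from 66.9 to 113 and Rock2 from 173 to 387 TMM-normalized CPM. Limk1, whose kinase inactivates cofilin, ranged from 26.8 to 44.0, and Diap1 from 72.3 to 147. In the effectors Rock2 and Diap1 animal 1 held the highest and animal 2 the lowest static level.

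Myosin II is the motor of the machinery. Myosin light chain kinase (Mylk, chr16:34745210-35002420) stood at 115 and 298 TMM-normalized CPM in static and 14.8 and 199.7 in stretched WT MCs, and 10.7 and 53.0 in static and 3.88 and 28.6 in stretched CAV1-/- MCs. Both static CAV1-/- cultures lay below both static WT cultures, and the stretched culture was the lower one in each animal, at log2 differences of -2.88 and -0.57 (WT) and -1.26 and -0.87 (CAV1-/-). None of these differences passed the adjusted test. The log2 genotype difference was -2.89 ± 1.49 in static MCs (unadjusted p = 0.0990, adjusted p = 0.723, limma), and the average stretch difference -1.40 ± 1.05 (unadjusted p = 0.232, and 0.00510 with an adjusted p of 0.0963 with the animal as a block). Smooth muscle cells are known for high Mylk. The summed level of 9 fibroblast markers was 11299.6 and 17966 in static and 9099 and 13380.0 in stretched WT MCs, and 8771 and 20339 in static and 8521 and 18053 in stretched CAV1-/- MCs, and that of 8 of 9 listed smooth muscle and pericyte markers was 817 and 435 in static and 651 and 431 in stretched WT MCs, and 1028 and 499.6 in static and 859.7 and 512 in stretched CAV1-/- MCs. In each genotype and condition the animal with more Mylk also had more of all 9 fibroblast markers. Between static and stretched cultures the list was mixed, with Pdgfra, Dcn and Col3a1 lower and Pdgfrb higher in the stretched culture of all 4 animals. Between genotypes it was mixed too, as static Pdgfra was 264 and 603 in WT and 55.4 and 706 TMM-normalized CPM in CAV1-/- cultures. The smooth muscle and pericyte sum was lower in the animal with more Mylk, in each genotype and condition. Members of that list were mixed, with Myh11, Des, Mcam and Ldb3 lower and Notch3 higher there each time. Summed mesothelial markers, given above, were lower in every CAV1-/- than in every WT culture, though Wt1 and Krt19 overlapped between genotypes. The part of fibroblasts, smooth muscle cells and mesothelial cells in the Mylk differences was not tested.

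Myh10, the heavy chain of non-muscle myosin IIB that bears sustained tension, stood at 947 and 1303 TMM-normalized CPM in static and 441 and 975 in stretched WT MCs, and 336 and 647 in static and 278 and 515 in stretched CAV1-/- MCs. Static CAV1-/- cultures lay below static WT cultures, at a log2 difference of -1.25 ± 0.52 (unadjusted p = 0.0531, adjusted p = 0.620, limma), and the averaged genotype difference was -1.02 ± 0.37 (unadjusted p = 0.0321, adjusted p = 0.323, limma). On stretching it was lower in every animal, at log2 differences of -1.10 and -0.42 (WT) and -0.27 and -0.33 (CAV1-/-), with an average of -0.53 ± 0.37 (unadjusted p = 0.201, and 0.00270 with an adjusted p of 0.0759 with the animal as a block). Myh9, the heavy chain of the faster myosin IIA, stood at 2758 and 2579 TMM-normalized CPM in static and 2225 and 2639.5 in stretched WT MCs, and 3608 and 2578 in static and 4396 and 3054 in stretched CAV1-/- MCs. Stretched CAV1-/- cultures lay above stretched WT cultures, at a log2 difference of 0.60 ± 0.28 (unadjusted p = 0.0749, adjusted p = 0.871, limma), a difference of 0.33 without animal 1.

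The regulatory light chains Myl12a and Myl12b are the targets of myosin light chain kinase. Myl12a stood at 792 and 686 TMM-normalized CPM in static and 735 and 641 in stretched WT MCs, and 904 and 643 in static and 831 and 614 in stretched CAV1-/- MCs. Myl12b stood at 128 and 79.4 TMM-normalized CPM in static and 109 and 71.3 in stretched WT MCs, and 98.2 and 58.2 in static and 88.3 and 48.3 in stretched CAV1-/- MCs. Both were lower in every animal on stretching, and so under all 3 scalings. The log2 differences of Myl12a were -0.11 and -0.098 (WT) and -0.12 and -0.068 (CAV1-/-), and those of Myl12b were -0.23 and -0.15 (WT) and -0.15 and -0.26 (CAV1-/-). Up to 25.1% of their 61-base stretches are shared with other annotated genes, the largest share with a further annotated gene that is also named Myl12b, so the split of reads between them is uncertain. The essential light chain Myl6 ranged from 556 to 797 TMM-normalized CPM, with an interaction of -0.10 ± 0.30 that did not overlap between genotypes (unadjusted p = 0.753).

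All 8 actins and filament proteins stood higher in CAV1-/- than in WT MCs in both conditions, with median log2 differences of 0.26 (static) and 0.17 (stretched). Under quantile normalization 7 and 4 of the 8 did, with medians of 0.11 and 0.031, and without animal 1 6 and 7 of 8 did, with medians of 0.13 and 0.11. Actb stood at 4734 and 4515 TMM-normalized CPM in static and 4405 and 4389 in stretched WT MCs, and 6361 and 5146 in static and 5932 and 4913 in stretched CAV1-/- MCs. Actg1 stood at 4153 and 3924 TMM-normalized CPM in static and 4106 and 3874 in stretched WT MCs, and 4853 and 4761 in static and 4297 and 4389 in stretched CAV1-/- MCs. For both actins all CAV1-/- cultures were above all WT cultures, with averaged log2 differences of 0.30 ± 0.17 (Actb, unadjusted p = 0.126) and 0.19 ± 0.14 (Actg1, unadjusted p = 0.236). Actg1 was the 1 gene whose CAV1-/- groups did not overlap on stretching, with a log2 difference of -0.15 ± 0.20 (unadjusted p = 0.495), but 35.6% of its 61-base stretches are shared with other genes, mostly the processed pseudogene Gm12715.

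Thymosin β4 (Tmsb4x) had the largest static difference upward among the genes whose groups did not overlap. It stood at 1023 and 639 TMM-normalized CPM in static and 1372 and 809 in stretched WT MCs, and 1251 and 1541 in static and 1229 and 1665 in stretched CAV1-/- MCs. The log2 genotype difference was 0.78 ± 0.35 in static MCs (unadjusted p = 0.0685, adjusted p = 0.670, limma) and 0.61 ± 0.25 averaged (unadjusted p = 0.0493). In stretched MCs animal 1 lay inside the WT range, and the interaction was -0.34 ± 0.50 (unadjusted p = 0.523). The part of the leukocyte marker sum, which was highest in animal 1, in the Tmsb4x differences was not tested. Cofilin (Cfl1), which severs filaments, stood at 956 and 949 TMM-normalized CPM in static and 1081 and 988 in stretched WT MCs, and 1240.0 and 1095 in static and 1256 and 1069 in stretched CAV1-/- MCs, with WT groups that did not overlap on stretching (log2 difference 0.12 ± 0.16, unadjusted p = 0.481). Profilin (Pfn1), which feeds monomers to formins, was lower on stretching in every animal, at log2 differences of -0.066 and -0.18 (WT) and -0.088 and -0.12 (CAV1-/-), and lost this under quantile normalization.

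Tropomyosins shield filaments and choose which myosins bind. Tpm3 stood at 498 and 495 TMM-normalized CPM in static and 481 and 499 in stretched WT MCs, and 591 and 538 in static and 543 and 568 in stretched CAV1-/- MCs, with all CAV1-/- cultures above all WT cultures. Tpm4 stood at 1303 and 1007 TMM-normalized CPM in static and 1401 and 1102 in stretched WT MCs, and 1669 and 1129 in static and 1524 and 1174 in stretched CAV1-/- MCs, with an interaction of -0.16 ± 0.39. The sign of this interaction turned when any of 4 single cultures was left out, which leaves the partner culture of that animal unpaired. Of their 61-base stretches, 21.3% (Tpm3) and 14.0% (Tpm4) are shared with other genes. Caldesmon (Cald1), which restrains myosin on actin, ranged from 1610.5 to 2265 TMM-normalized CPM, and its stretched CAV1-/- cultures lay above both stretched WT cultures, at a log2 difference of 0.20 ± 0.23 (unadjusted p = 0.434).

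SRF and the MRTF coactivators read the actin state. Srf stood at 105 and 112 TMM-normalized CPM in static and 106 and 102 in stretched WT MCs, and 114 and 109 in static and 142 and 106 in stretched CAV1-/- MCs, Mkl1 (MRTF-A) at 75.9 and 82.8 TMM-normalized CPM in static and 90.1 and 81.6 in stretched WT MCs, and 101 and 83.9 in static and 130.0 and 86.2 in stretched CAV1-/- MCs, and Mkl2 (MRTF-B) at 42.3 and 47.4 TMM-normalized CPM in static and 26.8 and 50.3 in stretched WT MCs, and 45.5 and 44.6 in static and 43.9 and 45.8 in stretched CAV1-/- MCs. The 3 genes stood higher in CAV1-/- MCs in both conditions, with medians of 0.045 and 0.28, and without animal 1 of 0.011 and 0.028. In stretched MCs only animal 1 stood above the WT range in Srf, and none of the 3 genes reached an unadjusted p of 0.05 in any comparison. The smallest was that of Mkl1 averaged over conditions (0.26 ± 0.15, unadjusted p = 0.137).

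SRF binds the CArG box. In RefSeq promoters on GRCm38.p6, taken from 250 bases before to 50 after the start, 41 of the 49 genes had an entry and 6 of them (14.6%) held a CArG box on either strand, against 1.81% of 27025 genes. Actb, Tln2, Parva, Ptk2, Pxn, Tgfb1i1, Rock1 and Diap1 had no entry, so they were not searched for any motif. The 27025 are all genes with a promoter entry, not only those tested here, and 1 promoter with the motif was enough for a gene to count. The 6 members were Vcl, Fermt2, Trip6, Myl6, Actg1 and Srf, which held 2. The box of Trip6 lies past its start and is not shown. The others are shown because they mark the genes of the machinery that carry the motif of SRF just ahead of their start, with the motif in capitals and 10 bases on each side, 5′ to 3′ on the strand of the gene:
Vcl: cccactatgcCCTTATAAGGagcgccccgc
Fermt2: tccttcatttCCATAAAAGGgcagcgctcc
Myl6: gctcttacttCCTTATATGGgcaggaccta
Actg1: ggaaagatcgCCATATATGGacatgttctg
Srf, upstream site: ctggggctcgCCATATAAGGagcggcctcg
Srf, downstream site: agcggcctcgCCATAAAAGGaaacattgta
These windows lie at chr14:20929161-20929190 (Vcl, + strand), chr14:45530250-45530279 (Fermt2, - strand), chr10:128493040-128493069 (Myl6, - strand), chr11:120348566-120348595 (Actg1, - strand), chr17:46556225-46556254 (Srf, upstream site, - strand) and chr17:46556205-46556234 (Srf, downstream site, - strand). The window of Myl6 lies within the annotated span of the gene, ahead of an internal RefSeq start. Among the 6 genes with a CArG box, the log2 stretch difference in WT MCs was -0.53 for Vcl, 0.14 for Fermt2, -0.050 for Trip6, 0.028 for Myl6, -0.017 for Actg1 and -0.059 for Srf. Signs were mixed, and Vcl alone among the 6 had WT groups without overlap.

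TEAD factors, the DNA-binding partners of YAP, bind the letters GGAATG, which read as CATTCC on the other strand. Of the 41 genes with an entry 12 (29.3%) held these 6 letters on either strand, against 16.6% of 27025 genes, and none of these sites overlapped a CArG box. The 12 were Vcl, Actn4, Flna, Flnc, Lpp, Trip6, Mylk, Myh10, Myl12a, Pfn1, Cald1 and Mkl2. Flnc also holds a match across its start, which is not shown. Sites of 6 of these 12 genes are shown in the same way, the window of Myh10 ending at its start:
Vcl: ccctcccttgGGAATGggggcggggc
Flna: cgttgtggggCATTCCaacgggaggg
Flnc: ggccgggcggCATTCCtgggaggccg
Lpp: ggaagtatgtGGAATGgagaaggaag
Mylk: cagttcagaaCATTCCctggtacgtg
Myh10: caatgagcatCATTCCa
They lie at chr14:20929245-20929270 (Vcl, + strand), chrX:74246665-74246690 (Flna, - strand), chr6:29433142-29433167 (Flnc, + strand), chr16:24721663-24721688 (Lpp, + strand), chr16:34784782-34784807 (Mylk, + strand) and chr11:68691898-68691914 (Myh10, + strand). The windows of Flna, Lpp, Mylk and Myh10 lie within the annotated span of the gene, ahead of an internal RefSeq start. A match of these letters is a description of the sequence and not a measured binding site.

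Ratios within a library do not depend on its scaling, so 12 pairs of related genes were compared as log2 ratios, with an exact sign-flip permutation test over the 4 animals whose smallest p is 0.125. The ratio of Myh10 to Myh9 per kb was 0.424 and 0.624 in static and 0.245 and 0.457 in stretched WT MCs, and 0.115 and 0.310 in static and 0.0781 and 0.208 in stretched CAV1-/- MCs. The log2 ratio differed on stretching by -0.59 ± 0.14 (SD over 4 animals), with 4 of 4 animals lower (exact p = 0.125, adjusted p = 0.25 over 12 pairs). The CAV1-/- animals lay below the WT animals, by -1.42 (exact permutation p = 0.333, the smallest that 2 against 2 allows), and by -0.71 without animal 1.

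The ratio of Tln2 to Tln1 per kb was 0.0455 and 0.0430 in static and 0.0538 and 0.0451 in stretched WT MCs, and 0.0477 and 0.0656 in static and 0.0595 and 0.0826 in stretched CAV1-/- MCs. It was higher on stretching in 4 of 4 animals, by 0.24 ± 0.12 (SD, exact p = 0.125), and higher in CAV1-/- animals by 0.42 without overlap (exact permutation p = 0.333). Rock2 to Rock1 (-0.16), Tns3 to Tns1 (-0.17), Actn4 to Actn1 (-0.15) and Myl12b to Myl12a (-0.10) were each lower on stretching in 4 of 4 animals, with the same smallest p of 0.125. Flnc to Flna was lower in CAV1-/- animals without overlap (-0.36), as was Myl12b to Myl12a (-0.48). Actg1 to Actb, the pair of cytoplasmic actins, differed by -0.0038 on stretching, with 2 of 4 animals higher, and lay between 0.730 and 0.940 per kb in all libraries. The pairs Rhob to Rhoa, Rhoc to Rhoa, Tpm4 to Tpm3 and Mkl2 to Mkl1 differed by 0.017, 0.080, 0.061 and -0.30, with animals on both sides of 0.

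**Figure D5:**
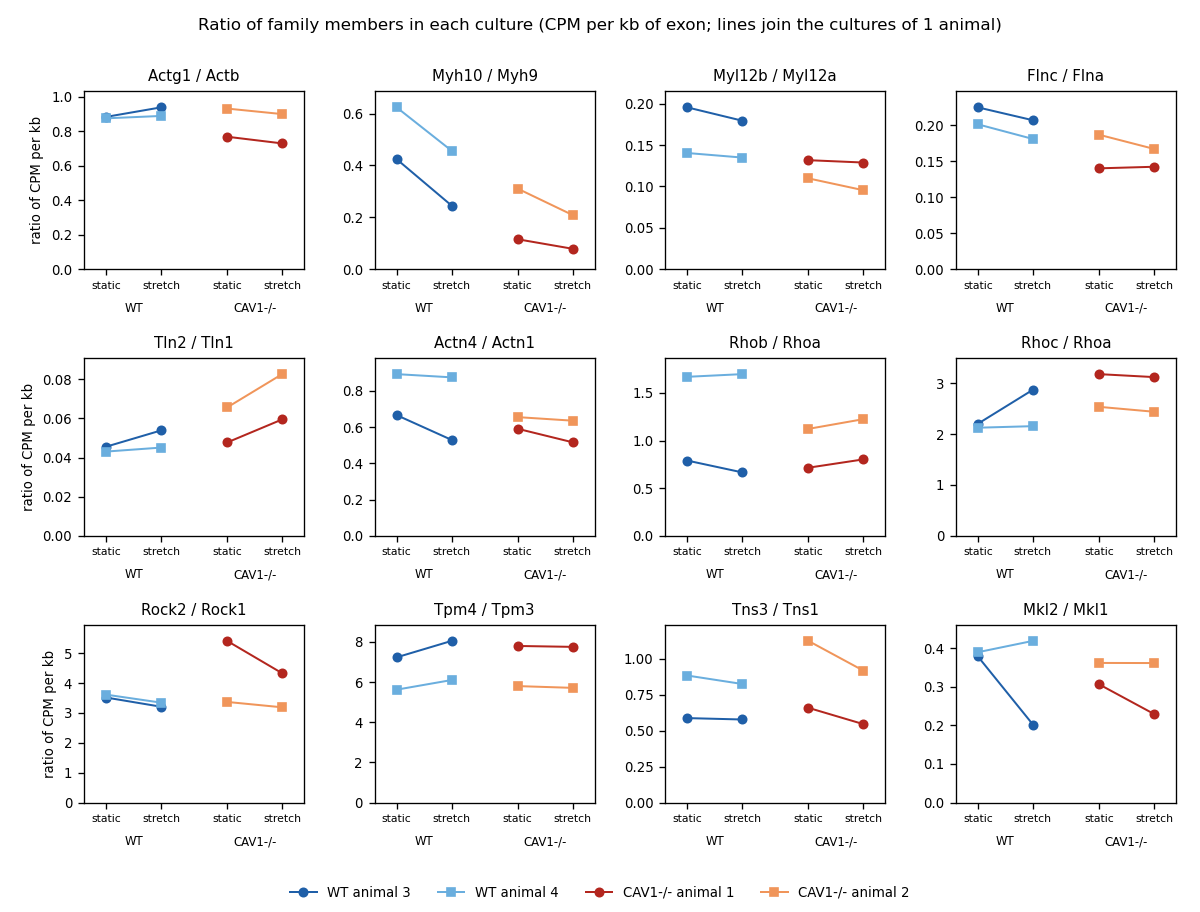
Ratio per kb of 12 pairs of related genes in each of the 8 cultures on linear axes from 0, static and stretched cultures of 1 animal joined by a line. Myh10/Myh9 slopes down in all 4 animals and spans 0.0781 to 0.624, and Tln2/Tln1 slopes up in all 4.

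Other genes of the same pathway were counted from a separate list, of which 72 of 74 were in the table. By limma 1 of the 72 passed an adjusted p of 0.05, Sorbs3 for the averaged genotype difference (1.2% of all genes passed in that comparison), and 0 passed in the other 6 comparisons. Vinexin (Sorbs3), a vinculin-binding adaptor, stood at 78.4 and 80.7 TMM-normalized CPM in static and 37.4 and 58.0 in stretched WT MCs, and 28.3 and 36.8 in static and 22.6 and 24.4 in stretched CAV1-/- MCs. It was lower in CAV1-/- MCs, at a log2 difference of -1.12 ± 0.16 (adjusted p = 0.0413, limma, and 0.280 with the animal as a random effect), with all CAV1-/- cultures below all WT cultures. On stretching Sorbs3 stood lower in all 4 animals, at an average of -0.60 ± 0.16 (unadjusted p = 0.0101, adjusted p = 0.984, limma). Averaged over conditions 12 of the 72 genes were higher and 5 lower in CAV1-/- MCs at an unadjusted p of at most 0.05 (all genes, 5.09% and 7.95%).

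In static MCs, 4 of the 72 were higher and 5 lower at an unadjusted p of at most 0.05 (all genes, 2.76% and 5.42%), and the smallest p after Sorbs3 were those of Tes, Pdlim3, Enah and Ajuba. Testin (Tes), a LIM protein that binds zyxin, stood at 135 and 113 TMM-normalized CPM in static and 196 and 144 in stretched WT MCs, and 262 and 222 in static and 257 and 253 in stretched CAV1-/- MCs, and Enah, which elongates filaments as VASP does, at 33.5 and 38.4 TMM-normalized CPM in static and 41.6 and 46.3 in stretched WT MCs, and 60.7 and 95.9 in static and 70.4 and 126 in stretched CAV1-/- MCs. Both lay higher in all CAV1-/- cultures, with static log2 differences of 0.96 ± 0.18 and 1.07 ± 0.32 (unadjusted p = 0.00186 and 0.0157). Pdlim3, an actinin-binding protein of muscle, stood at 30.5 and 64.7 TMM-normalized CPM in static and 2.61 and 29.9 in stretched WT MCs, and 0.577 and 0.308 in static and 0.728 and 0.274 in stretched CAV1-/- MCs, a static log2 difference of -4.98 ± 0.96 (unadjusted p = 0.00193), and Ajuba, another LIM protein of adhesions and cell contacts, had a log2 difference of -0.48 ± 0.17 (unadjusted p = 0.0281). The summed level of 8 of 15 listed skeletal muscle markers, mostly Acta1 and Des, was 526 and 111 in static and 749.6 and 131 in stretched WT MCs, and 1076 and 204 in static and 1553 and 210.3 in stretched CAV1-/- MCs, and its part in the Pdlim3 difference was not tested. In stretched MCs 6 were higher and 3 lower (all genes, 2.44% and 3.82%), led by Sorbs3, Enah, Tes, the microtubule-bound exchange factor Arhgef2 (0.44 ± 0.14) and palladin (Palld, 0.70 ± 0.23), an actin crosslinker of stress fibres. For stretch averaged over genotypes, 39 of the 72 stood higher by sign (all genes, 47.7%). At an unadjusted p of at most 0.05, 1 was higher and 1 lower (all genes, 2.19% and 2.55%). The higher one was Csrp2, a LIM protein of smooth muscle, at a log2 difference of 0.84 ± 0.32 (unadjusted p = 0.0395, adjusted p = 0.984, limma). Its adjusted p was 0.0278 with the animal as a block.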

How the data were processed

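The authors deposited 1 gene-level table for the 8 libraries, a normalized signal in TMM-normalized CPM, made with CASAVA, cutadapt and RSEM on GRCm38, per the submitters' processing notes. The values were whole multiples of 1 read in each library for 100% of values (tolerance 0.001 reads), so reads were recovered, and 3 reads were taken as the detection floor. A gene was tested if 2 or more libraries held it at 1 or above (13665 genes, with 22 removed), as log2(value + 1) with limma 3.58.1 (R 4.3.3), 1 mean per group, moderated with a trend, and Benjamini-Hochberg adjustment over all tested genes. Fold changes of low genes are understated on this scale.

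Comparisons were stretch within and averaged over genotypes, genotype within and averaged over conditions, and the interaction. On recovered reads edgeR 4.0.16 called 0, 0, 0, 2, 6, 132 and 0 genes in that order, and DESeq2 1.42.0 was the other count test. The animal, which the labels name, pairs the static and stretched cultures: deviations from group means of cultures of 1 animal correlated at r = 0.703 (WT) and 0.850 (CAV1-/-) over 13687 genes. Fits were tested on simulated data.

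The members, lists and pairs were chosen with earlier results of these data known. All members are accounted for by role. Genes named with values are those past a threshold, the 3 largest differences in each direction without overlap, a fixed set, and paired genes. Of the other pathway genes, those past the adjusted threshold or at most 5 with the smallest p per comparison are named, and values beyond this rule were chosen after they were seen. Positions and exon lengths are from GENCODE M21 (13597 genes matched), and the length classes and the random-effect fit were chosen after seeing the data. Promoters and motifs are from RefSeq. Strand use in counting is not given in the sources used here. Alternatives covered scaling, filter, pseudocount, variance model, libraries in the fit, test and each culture or animal left out.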

Additional observations from a re-analysis of the deposited data

How the results depend on the processing

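Each comparison holds 2 animals per genotype and 1 culture per animal and condition, so the tests cannot resolve differences of the size seen between animals, and library depth did not limit the 49 genes. Replacing the adjusted by an unadjusted p of at most 0.05 gave 310 genes for stretch in WT MCs, 286 in CAV1-/- MCs and 647 averaged, and 1117, 856 and 1783 for genotype in static, stretched and averaged MCs, with 66 for the interaction. Of the 49 genes 1, 0, 1, 1, 3, 6 and 0 were among them. DESeq2 called 3, 7, 34, 309, 237 and 890 genes in the first 6 of these comparisons, including 1 (stretched) and 2 (averaged genotype) of the 49. For static genotype differences the count of 10 genes became 6 without a variance trend, 2 with edgeR or with the animal as a random effect, and 0 with only the libraries compared, as it did in stretched MCs (8 before). The averaged comparisons and the interaction use all libraries, so that setting gives them no separate value. With the animal as a random effect the averaged genotype count fell from 164 to 10. Quantile normalization left 8 of 14 genes lower on stretching in every animal.

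With the replicate block, which for stretch is the animal, 1 gene was called in CAV1-/- MCs and 201 averaged over genotypes (152 with edgeR), with 0 of the 49 in both. For genotype the block joins different animals that share only a number (r of deviations 0.522 static and 0.484 stretched). It gave 246, 110 and 954 genes in static, stretched and averaged MCs, with 1 (Myh10, adjusted p = 0.0364) and 6 (Myh10, Mylk, Tln2, Csrp1, Myl12b and Fermt2) of the 49 in the first and the last. Of the 72 other pathway genes it called 2 for stretch averaged over genotypes (Csrp2 and Rnd3), 2 in static MCs (Sorbs3 and Tes) and 9 averaged over conditions, against 0, 0 and 1 without it. It changed no other call of the 49 genes or of the 72.

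When single cultures or animals were left out, the genes called ranged from 0 to 8 (static), 0 to 7 (stretched) and, for the averaged genotype difference, 13 to 97 without a culture and 0 to 376 without an animal, the most without animal 2, with 0 of the 49 called each time. The median over the 49 genes ranged from -0.027 to 0.25 (static), 0.050 to 0.31 (stretched), 0.019 to 0.28 (averaged genotype) and -0.055 to 0.25 (interaction). The interaction turned sign in 8 such fits, each without a single culture. In those fits the partner culture of the same animal stayed unpaired, so the gap between animals enters the values. That of Tmsb4x, between -0.72 and 0.042, was 0.00093 without the static culture of animal 4 and 0.042 without the stretched one of animal 3. That of Tpm4, between -0.44 and 0.13, was 0.030 and 0.018 without the same cultures, 0.13 without the static culture of animal 1 and 0.033 without the stretched one of animal 2. That of Tns1, between -0.20 and 1.23, was -0.076 and -0.20, as given with its values. Of the values of named genes and pairs 1060 kept direction and call, 32 genotype ratios of pairs differed by more than the spread between animals when an animal was left out, and 6 passed a test that they had not passed before. The causes were not tested. Every scaling shifted the median of all genes by less than 0.1 on the log2 scale.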

Other observations

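Gm7809 is annotated as a processed pseudogene, and 10.4% of the 61-base stretches of Tpm4 also lie in it. Gm7809 stood at 0 and 0 TMM-normalized CPM in static and 0.296 and 0.185 in stretched WT MCs, and at 38.6 and 48.3 in static and 34.0 and 39.5 in stretched CAV1-/- MCs. By limma its adjusted p was 0.00166 in static MCs, 0.00312 in stretched MCs and 0.000274 averaged over conditions, and all CAV1-/- cultures lay above all WT cultures. It was named after its values were seen. Tpm4 itself overlapped between genotypes in both conditions.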
